A study of Homo sapiens with 4 samples.

Results

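The genes described here are 6 DNA mismatch repair genes, MSH3, MSH6, MLH3, PMS1, PMS2 and EXO1, in HuCCT1, a cell line grown from a human cancer of the bile duct (cholangiocarcinoma). They were matched to the array by symbol, and each had exactly 1 row on the array that carried its symbol alone, so all 6 were measured, out of 18377 named genes. The 4 conditions, with 1 array each, were HuCCT1 cells given GEM and VPA together (GEM_VPA, the combination), cells given VPA alone, cells given GEM alone, and untreated cells. The labels do not spell the agents out. In cancer work GEM usually stands for gemcitabine, a nucleoside analogue, and VPA for valproic acid, which inhibits histone deacetylases. How much of each was given, and for how long, is not stated by the labels. The design sets each drug against no drug and the drugs together against each drug alone. No condition was replicated, so no difference has an error or a p-value, and precision is limited by having 4 arrays in all.

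Mismatch repair corrects bases mispaired, or small loops left, when DNA is copied. MutS proteins recognise the error: MSH6 and MSH3 each join a common MutS partner, and the MSH6 dimer takes mispairs and the smallest loops while the MSH3 dimer takes larger loops. MutL proteins then act: PMS2, MLH3 and PMS1 each join a common MutL partner, and PMS2 and MLH3 carry the endonuclease site that nicks the new strand, which PMS1 lacks. EXO1 is the exonuclease that removes the stretch holding the error, after which the clamp PCNA, its loader RFC, the single-strand binding protein RPA, DNA polymerase delta and DNA ligase 1 refill and seal it. Most of these refilling proteins also copy DNA in S phase. The common MutS and MutL partners are not analysed here.

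Levels were log2 intensities, deposited after normalization between arrays, and the array medians over 28869 rows lay between 7.87 and 7.92. A gene was counted as different, or called, when its log2 ratio between 2 arrays was at least 1 in size (2-fold) and its higher value reached the median of its array. Over all rows the combination and untreated arrays correlated at 0.996 and the VPA and GEM arrays at 0.996, against 0.984 to 0.987 for the other pairs of arrays. The array labelled as the combination was thus nearest to the one labelled untreated, and the VPA array nearest to the GEM array. The labels are used as given. With 1 array per condition a true likeness and exchanged labels cannot be told apart, and an exchange would alter the ratios and the departures from additivity below. The robust SD of the log2 ratio over all genes (from the median absolute deviation) was 0.147 for the combination over untreated and 0.158 for VPA over GEM, and between 0.253 and 0.270 for the other comparisons. Of the markers of the labelled cell type, KRT7, KRT19, EPCAM, SOX9 and CDH1, all 5 were above the array median on every array. Of the measured markers of hepatocytes (3), leukocytes (2), endothelium (2) and fibroblasts (3), only APOA1 (8.35 to 8.42 over the arrays) and COL1A1 (8.76 to 9.15) were above it on any array. KRT7, a keratin of bile duct epithelium, was the 1 of the 5 called with the single drugs. The median log2 ratio of the 5 over untreated was 0.64 with VPA and 0.67 with GEM. With each drug 4 of the 5 were above 0, and EPCAM was below, at -0.15 with VPA and -0.19 with GEM. The level of KRT7 was 8.93 with the combination, 11.50 with VPA and 11.14 with GEM, against 9.53 in untreated cells. The part of these markers in the differences below was not tested.

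The promoters of the 6 genes are shown because the members that differed most and those that differed least can be set side by side. The sequences are from RefSeq on GRCh38.p14, in windows of 250 bases before and 50 bases after each start in the promoter table, and all 6 genes had at least 1 window. E2F factors are the transcription factors best known for driving genes of DNA copying, and the words searched for their site, on both strands, were TTTCCCGC, TTTCGCGC, TTTGCCGC and TTTGGCGC. These stood in 5 of the members' 11 windows, which belong to 4 genes, MSH6, EXO1, MSH3 and PMS2, and in 3.31% of the 35116 windows of all genes. The PMS2 windows overlap, and the same site is counted in each. Positions count from 1 at the start, with negative positions before it and no position 0. The 30 bases around each site follow, read along the gene's own strand with the site in capitals, from chr2:47783137-47783166 (plus strand), chr1:241848197-241848226 (plus), chr5:80654534-80654563 (plus) and chr7:6009131-6009160 (minus).
MSH6: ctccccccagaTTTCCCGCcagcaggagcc
EXO1: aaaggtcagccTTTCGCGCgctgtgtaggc
MSH3: gcgcggtcaagTTTGGCGCGAAAttgtggc
PMS2: cgggaagtattTTTGCCGCcccgcccggaa

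The MSH6 site lay at positions 4 to 11 and the EXO1 site at positions 5 to 12. The MSH3 capitals hold a pair of overlapping words on opposite strands, at positions -107 to -96, and the PMS2 site lay at positions -43 to -36 of its farthest upstream start. The table holds 4 starts for MSH6 and 2 for EXO1, and in each gene only the start shown carried a match. The RefSeq gene record of EXO1 begins upstream of both of its starts in the table, and that outermost stretch was searched only as far as these windows reach. The promoters of the remaining members, PMS1 and MLH3, had no such word. Their last 100 bases before the start are given for comparison, from chr2:189784350-189784449 (plus strand) and chr14:75051468-75051567 (minus).
PMS1: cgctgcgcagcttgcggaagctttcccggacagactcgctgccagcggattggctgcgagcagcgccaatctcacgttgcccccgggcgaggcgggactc
MLH3: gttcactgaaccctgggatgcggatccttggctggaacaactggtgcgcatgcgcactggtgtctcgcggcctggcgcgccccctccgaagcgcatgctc

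The GC box word GGGCGG, known as a site of SP1 factors and found in 45.0% of all windows, occurred 5 times at the first MSH6 start, 4 times for MSH3, 2 times at the first PMS2 start, 1 time each for PMS1 and the EXO1 start shown and 0 times for MLH3. The first of the PMS2 GC boxes overlaps its E2F word. The CCAAT word, the NF-Y site, is in 34.6% of all windows. It occurred 3 times at the first PMS2 start, 2 times for PMS1 and 1 time at the first MSH6 start. The words TTTGAA and TTCGAA of the CHR element, known from promoters of mitosis genes, are in 16.4% of all windows and in 0 of the 11 windows of the members. The words were chosen after the levels were seen. An E2F word stood at MSH6 and EXO1, which had the widest ranges over the arrays (1.49 and 1.32 log2 units). It also stood at MSH3 (0.56) and at PMS2, which had the narrowest (0.13), but not at PMS1 (0.55) or MLH3 (0.31). A match here is a description of letters only, and the part of these words in the differences between arrays was not tested.

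Among the MutS genes, MSH6 was the member with the widest range over the 4 arrays. Its log2 level was 9.87 with the combination, 8.66 with VPA and 8.44 with GEM, against 9.94 in untreated cells. The arrays of the single drugs were both low and the other arrays were both high, with nothing between. How many of all genes show this split was not counted, and the correlations above group the arrays in the same way. The split is thus not shown to be particular to these members. MSH6 was 2.42-fold lower with VPA than in untreated cells (log2 ratio -1.27), the 70th lowest ratio of 11611 genes at level. With GEM it was 2.82-fold lower than in untreated cells (-1.49), the 63rd lowest of 11593. The combination was 2.30-fold above VPA alone (log2 ratio 1.20) and 2.68-fold above GEM alone (1.42), and stood at -0.07 against untreated. In RNA from a whole culture, fewer cells carrying a transcript and less of it per cell cannot be told apart.

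MSH3, the MutS gene for larger loops, showed the same split, with both single-drug arrays below both other arrays, over a smaller range. Its log2 level was 8.97 with the combination, 8.41 with VPA and 8.53 with GEM, against 8.90 in untreated cells. The log2 ratio over untreated was -0.50 with VPA and -0.38 with GEM, so it stayed short of 2-fold on both arrays, and it was 0.07 with the combination. MSH3 thus differed from untreated by 1.41-fold with VPA and 1.30-fold with GEM, where MSH6 differed by more than 2-fold. MSH4, a MutS homologue of meiosis, lay below the 25th percentile of rows on all arrays, at 5.62 with the combination, 5.51 with VPA and 5.64 with GEM, against 5.73 in untreated cells. Its levels are not shown to be above background. MSH5, its meiotic partner, had no row of its own symbol alone. A pair of rows is shared by MSH5 and its readthrough transcript. The log2 ratio over untreated of the one was -0.35 with the combination, -0.38 with VPA and -0.53 with GEM, so it was about as low with the combination as with VPA. That of the other was 0.09 with the combination, -0.17 with VPA and -0.56 with GEM.

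Among the MutL genes, PMS2, the main endonuclease of mismatch repair, hardly differed between arrays. Its log2 level was 10.73 with the combination, 10.69 with VPA and 10.82 with GEM, against 10.82 in untreated cells. The whole range over the 4 arrays was 0.13, below the robust SD over all genes of each comparison, and the GEM and untreated arrays differed by 0.004. PMS2 has near-identical pseudogenes, and the array holds 14 rows annotated to PMS2, PMS2CL or the PMS2 pseudogenes, of which 8 list PMS2 with other symbols and 2 list several symbols without it. Over these 14 rows the log2 ratio over untreated ran from -0.25 to 0.20 with VPA and from -0.06 to 0.27 with GEM. The 8 rows that list PMS2 among several symbols were all above 0, from 0.03 to 0.17 with VPA and from 0.06 to 0.25 with GEM. The value of PMS2 itself is uncertain to the extent that its row picks up these copies, but no row of the family reached 2-fold.

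MLH3, the other endonuclease of the family, also known for crossovers in meiosis, had log2 levels of 8.93 with the combination, 8.63 with VPA and 8.70 with GEM, against 8.92 in untreated cells. Its log2 ratio over untreated was -0.29 with VPA, -0.22 with GEM and 0.01 with the combination. PMS1, whose part in repair is least clear, had log2 levels of 11.14 with the combination, 10.62 with VPA and 10.80 with GEM, against 11.16 in untreated cells. Its log2 ratio was -0.55 with VPA, -0.36 with GEM and -0.03 with the combination. Both genes thus had the split seen in MSH3, with the single-drug arrays low and no difference of 2-fold. PMS1 starts 111 bases from a start of ORMDL1, a regulator of sphingolipid synthesis read from the opposite strand. ORMDL1, a gene outside the list that was looked up after these values were seen, had log2 levels of 9.65 with the combination, 9.36 with VPA and 9.38 with GEM, against 9.81 in untreated cells.

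EXO1, the exonuclease, came next to MSH6 in size. Its log2 level was 10.84 with the combination, 9.84 with VPA and 9.52 with GEM, against 10.78 in untreated cells. Again both single-drug arrays were low and both other arrays high. EXO1 was 1.92-fold lower with VPA than in untreated cells (log2 ratio -0.94), just under the limit, and ranked 316th lowest. With GEM it was 2.39-fold lower (-1.25), the 152nd lowest ratio. The combination was 2.50-fold above GEM alone (1.32) and 2.01-fold above VPA alone (1.00). The last value sat on the limit and became 0.93 when the columns were quantile normalized a further time, which ends the call.

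**Figure D1:**
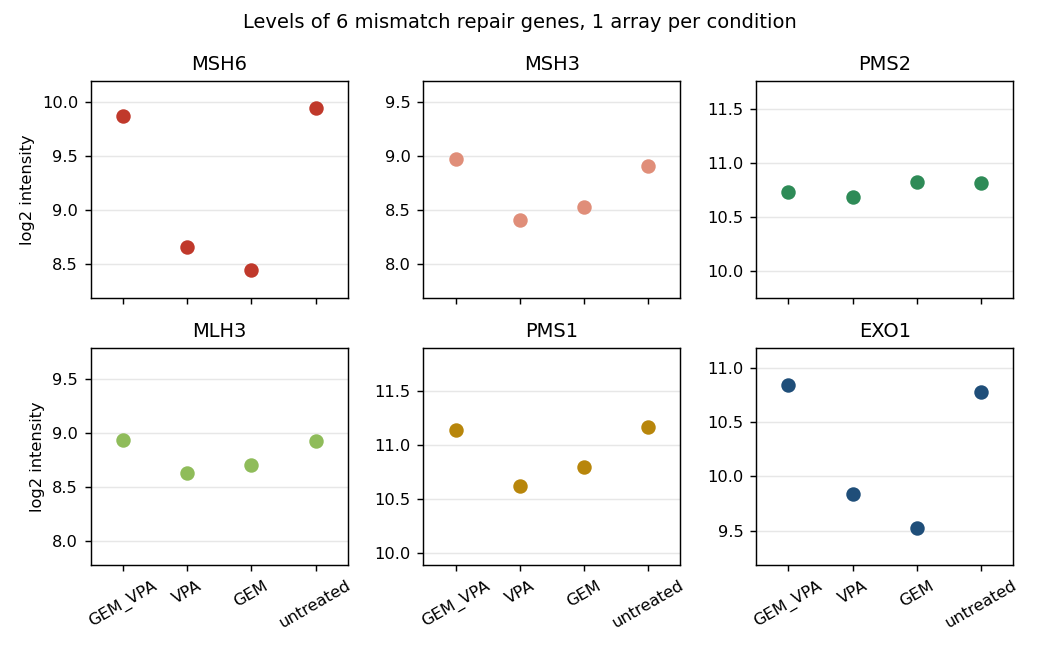
Log2 intensity (vertical axis, each panel spanning 2 log2 units) of the 6 mismatch repair genes on the 4 arrays, 1 point per array. MSH6 and EXO1 show both single-drug arrays well below the combination and untreated arrays, MSH3, MLH3 and PMS1 show the same split over 0.31 to 0.56 log2 units, and PMS2 is nearly level.

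Counted together, the members were called through MSH6 and EXO1 alone in the 6 comparisons. With VPA over untreated, 1 of 6 members was called lower (MSH6) and 0 higher, where 2.09% of 11611 genes at level were called lower and 1.9% higher. Of all these calls 47.6% were higher, or 58.4% after quantile normalization again and 38.7% after median centring of the arrays. With GEM over untreated, 2 of 6 were lower (MSH6 and EXO1) and 0 higher, where 3.01% of 11593 genes were called lower and 1.48% higher. The median log2 ratio of the members was -0.52 with VPA and -0.37 with GEM, beside -0.01 over all genes in each. All 6 members were below 0 with VPA. With GEM 5 of 6 were, and PMS2 at 0.004 turned to -0.04 after median centring of the arrays. These 2 comparisons use the same untreated array.

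With the combination over untreated, 0 of 6 members were called, where 0.122% of 11489 genes were called higher and 0.0261% lower. Their log2 ratios lay between -0.09 and 0.07, with 3 above and 3 below 0 and a median of -0.01. The whole set thus stayed within the robust SD of 0.147 for that comparison.

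Set against each drug alone, the combination had 2 of 6 members higher over VPA (MSH6 and EXO1), where 1.48% of 11600 genes were called higher and 1.68% lower. Of all those calls 46.9% were higher, or 58.0% after median centring of the arrays and 41.4% after quantile normalization again. Over GEM, MSH6 and EXO1 were again the 2 of 6 members called higher, where 3.6% of 11638 genes were called higher and 1.78% lower. The median log2 ratio of the members was 0.54 over VPA and 0.39 over GEM, beside -0.01 and -0.02 over all genes. PMS2 was at 0.04 over VPA, -0.04 after quantile normalization again, and at -0.09 over GEM. Both comparisons use the combination array, and each single-drug array was already used above.

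**Figure D2:**
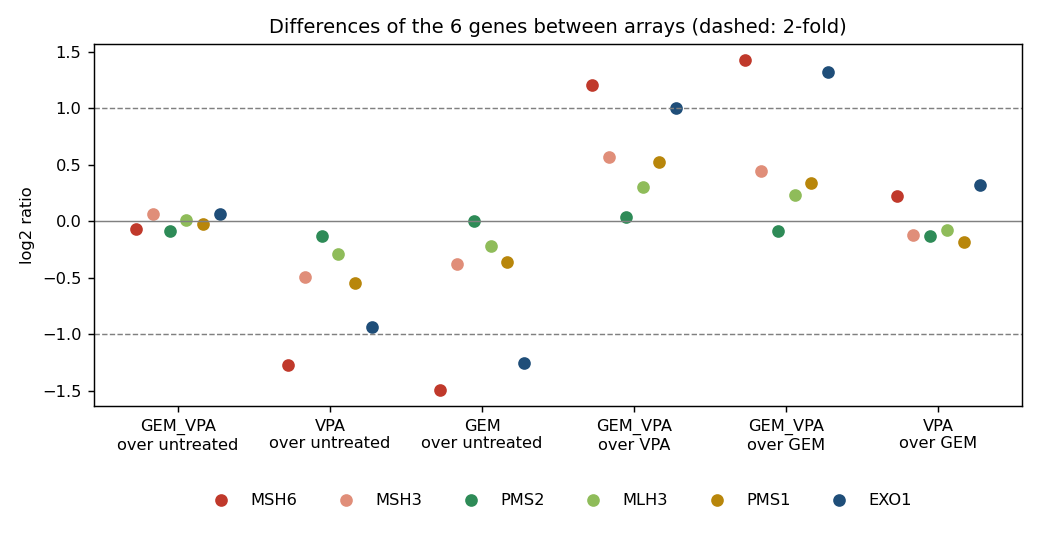
Log2 ratio (vertical axis) of each of the 6 genes in the 6 comparisons between arrays, 1 point per gene, with dashed lines at 2-fold. Points beyond the dashed lines are MSH6 in 4 comparisons and EXO1 in 3, and in the comparison of the combination over untreated all points lie between -0.09 and 0.07.

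Each drug's change can be read from 2 pairs of arrays that have no array in common, 1 pair lacking the second drug and 1 pair holding it. For MSH6 the change with VPA was 1.42 with GEM present and -1.27 without it, and the change with GEM was 1.20 with VPA present and -1.49 without it. For EXO1 the change with VPA was 1.32 with GEM present and -0.94 without it, and the change with GEM was 1.00 with VPA present and -1.25 without it. The signs were opposite in MSH3, MLH3 and PMS1 too, for both drugs. Where both single-drug arrays lie below both other arrays, opposite signs for both drugs follow by arithmetic. They restate the split described above and are not separate evidence. The departure from additivity (on the log2 scale, the combination and untreated levels summed, less those with VPA and with GEM) was 2.70 for MSH6, 2.26 for EXO1, 0.94 for MSH3, 0.88 for PMS1, 0.52 for MLH3 and 0.04 for PMS2. Its median over the members was 0.91, beside -0.01 over all genes. It was 1.43 over the 14 measured excision and resynthesis partners described below. Over base excision repair genes it was 0.56, and over nucleotide excision repair genes 0.37. No array is left over to give it an error.

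**Figure D3:**
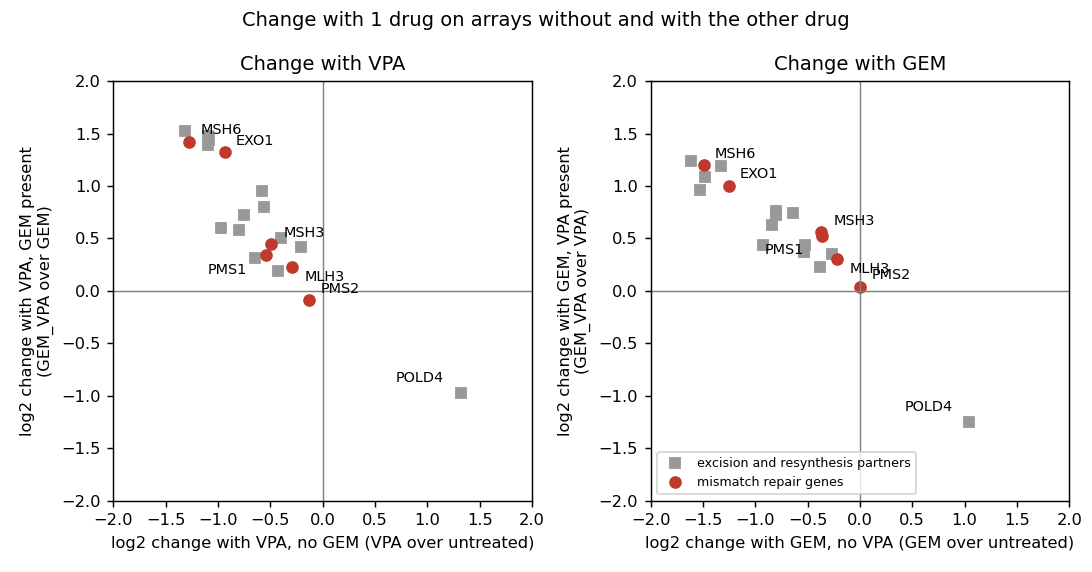
Log2 change with VPA (left) and with GEM (right), on arrays without the other drug (horizontal axis) and with it (vertical axis), for the 6 mismatch repair genes (red circles) and 14 excision and resynthesis partners (grey squares). MSH6 and EXO1 lie in the upper left quadrant, as do 13 of the 14 partners, PMS2 lies near the origin, and POLD4 lies alone in the lower right.

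VPA and GEM alone differed little from each other in these genes. With VPA over GEM, 0 of 6 members were called, where 0.27% of 11477 genes were called higher and 0.0349% lower. EXO1 was at 0.32 and MSH6 at 0.22 on the log2 scale, so the VPA array was the higher of the pair. MSH3 was at -0.12, MLH3 at -0.07, PMS1 at -0.18 and PMS2 at -0.13, with the VPA array lower. These signs held after a further quantile normalization and after median centring. EXO1, MSH6 and PMS1 exceeded the robust SD of 0.158 and the other members did not.

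The proteins that refill the gap were followed through 14 measured genes of a list of 15, HMGB1 having no row of its own symbol alone. With VPA over untreated, 4 of 14 were called lower and 1 higher, where 2.09% of genes at level were called lower and 1.9% higher. The list's median was -0.70, beside -0.01 over all genes. With GEM over untreated, 4 were lower and 1 higher, where 3.01% of genes at level were called lower and 1.48% higher. The median was -0.80, beside -0.01 over all genes. The genes called lower on both arrays were RFC3, RFC4 and RFC5, subunits of the clamp loader, and POLD3, a subunit of DNA polymerase delta. RFC3 stood at -1.08 with VPA and -1.33 with GEM, and RFC4 at -1.09 with VPA and -1.49 with GEM. RFC5 stood at -1.10 with VPA and -1.52 with GEM, and POLD3 at -1.32 with VPA and -1.61 with GEM. After quantile normalization again RFC3, RFC4 and RFC5 stood between -0.97 and -0.99 with VPA and were no longer called, which left 1 gene lower. After median centring POLD1, the catalytic subunit of polymerase delta, joined the lower genes with VPA at -1.02. Named for their roles after their values were seen, the clamp PCNA had log2 ratios over untreated of -0.64 (VPA) and -0.52 (GEM), and the ligase LIG1 of -0.80 (VPA) and -0.64 (GEM).

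POLD4, an accessory subunit of DNA polymerase delta, was the 1 gene called higher on both arrays. Its log2 level was 9.74 with the combination, 10.98 with VPA and 10.71 with GEM, against 9.66 in untreated cells. The single-drug arrays were thus both above the other arrays, with log2 ratios over untreated of 1.32 with VPA and 1.04 with GEM. With the combination over untreated 0 of 14 partners were called, where 0.122% of genes at level were called higher and 0.0261% lower. The partners' log2 ratios lay between -0.21 and 0.15. The combination over GEM had 4 partners called higher and 0 lower, where 3.6% of genes at level were called higher and 1.78% lower. The combination over VPA had 3 higher and 1 lower, POLD4 at -1.25, where 1.48% of genes were called higher and 1.68% lower. POLD4 over GEM was at -0.97, or -1.04 and called after a further quantile normalization.

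Other excision repair pathways gave lists with medians smaller in size, though with GEM that of base excision repair was close to the members' -0.37. Over all genes at level, 2.09% were called lower and 1.9% higher with VPA, and 3.01% lower and 1.48% higher with GEM. Of 18 base excision repair genes, which remove single damaged bases, 3 were called lower with VPA (FEN1 at -1.11, LIG3 at -1.10 and UNG at -1.06, the last -0.97 after quantile normalization again). With GEM 1 was lower, FEN1 at -1.27, the flap nuclease that also trims the lagging strand when DNA is copied. Median centring added NEIL3, a DNA glycosylase looked up after its value was seen, at -1.02 with GEM. The highest of the list was NEIL1, another DNA glycosylase, at 0.55 with VPA and 0.82 with GEM. In the combination over GEM, NEIL1 was called lower at -1.19, and 2 genes were called higher, FEN1 at 1.11 and NEIL3 at 1.05. The shares over all genes at level there were 1.78% lower and 3.6% higher. NEIL3 moved to 0.97 after quantile normalization again and was no longer called. The list's median was -0.34 with VPA and -0.35 with GEM. Of 19 listed nucleotide excision repair genes, which remove bulky damage, 15 were measured. Of these 15, 0 were called with either drug, which is near the shares over all genes. Their median was -0.18 with VPA and -0.12 with GEM. DDB2, which finds ultraviolet damage, was the highest with VPA at 0.56, and GTF2H3, a TFIIH subunit, the lowest at -0.64. With GEM the highest was XPC, a damage sensor, at 0.50, and the lowest ERCC8, of transcription-coupled repair, at -0.53. The differences between the lists were not tested.

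**Figure D4:**
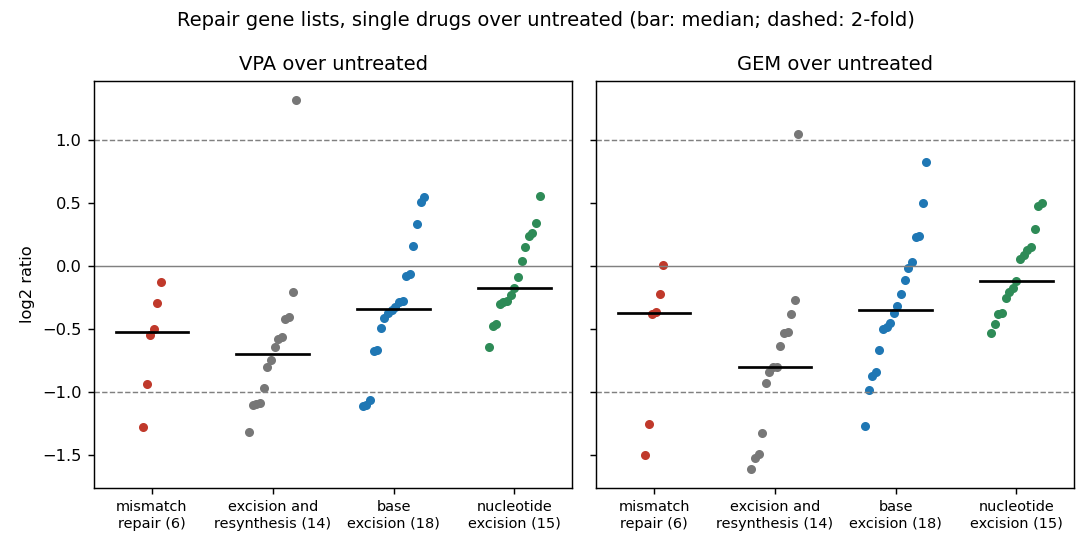
Log2 ratio over untreated (vertical axis) with VPA (left) and GEM (right) for 6 mismatch repair genes, 14 excision and resynthesis partners, 18 base excision and 15 nucleotide excision repair genes, 1 point per gene, with a bar at the list's median and dashed lines at 2-fold. The medians with GEM are -0.37, -0.80, -0.35 and -0.12, and POLD4 is the point above 1 in both panels.

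The genes most like MSH6 and EXO1 were those with the smallest root mean square difference over the 3 log2 ratios against untreated, among 11808 genes at level in at least 1 comparison. For MSH6 they were XRCC2, of homologous recombination (difference 0.0333), DUT, which hydrolyses dUTP (0.0422), KIF11, a mitotic kinesin (0.0523), MAP3K20, a stress kinase (0.0565), and TUBGCP3, of the gamma-tubulin complex (0.0598). XRCC2 stood at -0.10 with the combination, -1.23 with VPA and -1.48 with GEM. For EXO1 they were FANCC, of the Fanconi anaemia core complex (0.0309), WDR76 (0.0342), the histone gene H2AC20, whose near-identical relatives can share probes (0.0398), BARD1, a ubiquitin ligase subunit (0.0447), and NTAQ1, an amidase (0.0592). FANCC stood at 0.02 with the combination, -0.94 with VPA and -1.27 with GEM. These ratios all share the untreated array.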

How the data were processed

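RNA from 4 HuCCT1 cultures was hybridised to 1 Affymetrix Human Gene 1.0 ST array each. The deposited values are log2 intensities, which the authors processed with RMA (per the submitters' processing notes). The series' design text names GeneSpring GX 11.5 for normalization. RMA corrects background, equalises arrays and summarises probes, so array-wide shifts are reduced and low values are compressed. Small shifts remained, with array medians of 7.92 (VPA) and 7.91 (GEM) against 7.87 for both the combination and untreated arrays. Rows were named from the platform annotation, which gave 1 symbol to 19310 rows, several to 1752 and none to 7807, and genes took the mean of their rows. The Entrez ID of each of the 6 members matched the current RefSeq table. The 2-fold limit is the study's own, and the level filter was added here. The genome build behind the array rows is not known from these sources, so coordinates are given for the RefSeq promoters alone. The members were taken by symbol, and they, the lists and the rules were chosen with earlier results of these data known. Named genes were the members, the called or extreme genes of each list, and the 5 nearest genes of each called member, with PCNA, LIG1, NEIL3 and ORMDL1 added after their values were seen. The promoter words were chosen after the levels were seen. The counting step was tested on simulated data, with 200 genes changed by 1.5 log2 units and noise with an SD of 0.1 on each array. Of these 199 were recovered, with 0 false calls, and a first requirement that all be recovered was then relaxed. The changed genes lay well above the array median, and the real ratio of VPA over untreated had a robust SD of 0.264. The simulation thus checks the counting alone and not the calls on these arrays. Alternatives changed the scaling, level filter, fold limit, choice of row and list summary. No p-value was computed. Software was Python 3.11.15 with numpy 2.4.6, pandas 2.3.3 and matplotlib 3.10.9.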

Additional observations from a re-analysis of the deposited data

Results flagged for a closer look

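A difference between the array pair with the other drug and the pair without it was marked for 2 members. The rule was that each change reached 2-fold and the signs were opposite. The mark was sought among the members alone, and how many of all genes meet the rule was not counted. Among the excision and resynthesis partners, RFC3, RFC4 and POLD3 met it for both drugs. RFC5 met it for VPA, POLD4 met it for GEM with the signs reversed, and the other partners did not meet it. The mark is thus not shown to be particular to these members. For MSH6 the change with VPA was 1.42 with GEM present and -1.27 without it, a gap of 2.70 on the log2 scale, and the change with GEM was 1.20 with VPA present and -1.49 without it, which is the same gap of 2.70 by construction. For EXO1 the change with GEM was 1.00 with VPA present and -1.25 without it, a gap of 2.26. The change of 1.00 became 0.93 after a further quantile normalization, below 2-fold, so this mark does not hold under that scaling. With 1 array per condition these differences were not tested.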

How the results depend on the processing

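The 36 log2 ratios of the members moved by at most 0.097 after a further quantile normalization of the arrays and by at most 0.057 after median centring. No called ratio changed sign. Each member has 1 row, so the choice of row changed none of them. Quantile normalization left 1 member called in the combination over VPA, against 2, because EXO1 moved to 0.93. The level filters called the same members as the rule used above. At 1.5-fold, 2 members were called with VPA over untreated, against 1. At 3-fold, 0 members were called in any comparison. By the mean in place of the median, the members stood at -0.62 with GEM over untreated, at 0.61 with the combination over GEM and at 1.22 for the departure from additivity, against medians of -0.37, 0.39 and 0.91. Calls over all genes with VPA over untreated were 221 higher and 243 lower at 2-fold, 771 and 1202 at 1.5-fold and 56 and 15 at 3-fold. With GEM over untreated they were 172 higher and 349 lower at 2-fold, 690 and 1284 at 1.5-fold and 37 and 45 at 3-fold. For the combination over VPA they were 172 and 195, 1064 and 686, and 12 and 39 in the same order of limits, and for the combination over GEM 419 and 207, 1384 and 764, and 67 and 38. For the combination over untreated they were 14 and 3, 142 and 42, and 0 and 1, and for VPA over GEM 31 and 4, 228 and 36, and 4 and 0. No paired analysis was possible because each condition has 1 array, and for the same reason no array could be left out. Precision is limited by 1 array per condition, and signal over background was not analysed here.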
